A study of Mus musculus with 12 samples.

Results

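The liver's response to acetaminophen at 6 h in mice that drank plain water is given by 6 of the series' 12 RNA-seq libraries, those titled CTL_6h (replicates 2, 3 and 4) and CTL_0h (replicates 1, 3 and 4). The mice were C57BL/6 from Taconic, and plain water was the control of 4 weeks of 3-phenylpropionic acid (PPA) in the drinking water. Mice of both groups were fasted for 16 h, the protocol gave acetaminophen (APAP) as an intraperitoneal dose of 300 mg/kg, and sacrifice was at 6 h (CTL_6h) or 0 h (CTL_0h). The labels give neither sex nor age and do not tell whether the 0 h mice were injected. Nor do they tie each library to its own mouse, and p-values therefore cover the spread among the deposited libraries, which may be technical. The effects of APAP, the hour of the day and the time since fasting began cannot be told apart here. Depth cannot be told apart from time either: low FPKM steps gave an estimated 8610000, 10120000 and 7000000 fragments in CTL_6h livers, against 4220000, 5070000 and 3270000 in CTL_0h livers.

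Of 24340 gene rows, 10045 reached 1 FPKM (fragments per kilobase and per library total) in 3 or more of the 12 libraries and were compared. Alb and Apoe were left out, because Alb was listed at 0 in every CTL_6h library and at 18972 to 23773 FPKM in the CTL_0h libraries, and Apoe at 0 in the CTL_6h libraries against 44264 to 52465 FPKM at 0 h. The labelled tissue was checked on 22 hepatocyte markers, of which Alb alone was at 0 and that only at 6 h. Apoa1, the main protein of high-density lipoprotein, had 25864, 23199 and 28954 FPKM in CTL_6h livers, against 23153, 18633 and 22092 FPKM in CTL_0h livers. Values are always given in the order of the replicate numbers above. Differences are CTL_6h minus CTL_0h on the log2(FPKM + 1) scale with their standard error, a scale on which changes of sparsely expressed genes come out too small. "Rose" and "fell" mean an adjusted p under 0.05 in limma, and in bulk tissue fewer cells of a type cannot be told from less RNA per cell.

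In overdose, APAP is oxidised in pericentral hepatocytes, mainly by the P450 enzyme Cyp2e1, to a quinone imine that consumes glutathione and binds proteins. Hepatocytes answer such damage with layered programmes: kinase cascades switch on AP-1 factors, unfolded proteins release heat shock factor, the kinases of the integrated stress response favour translation of ATF4, and modified KEAP1 frees NRF2 to drive glutathione and detoxification genes. Dying cells also call in innate immune cells, and surviving hepatocytes lower part of their metabolic programme.

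Of the 10045 genes, 2704 changed (26.9%): 1523 rose (15.2%) and 1181 fell (11.8%), 504 of the risers by 2-fold or more (5.02%) and 143 of the fallers (1.42%). Each of the 1523 risers lay above the CTL_0h mean in all 3 CTL_6h libraries, and each of the 1181 fallers below it. Genes were called on these same libraries, so this agreement is no separate support. The groups did not overlap in 3984 genes (39.7%). The steepest risers and fallers named below were picked among genes without overlap. Its absence in them was therefore fixed in advance and is no separate support. Risers held 21%, 23.7% and 20.8% of the summed FPKM of tested genes in CTL_6h livers, against 9.48%, 10% and 10.6% in CTL_0h livers. The 60 genes that rose 8-fold or more (0.597% of those tested) held 5.42%, 5.13% and 5.57% in CTL_6h livers, against 0.527%, 0.284% and 0.465% in CTL_0h livers. Under upper-quartile scaling the median of all genes was -0.073, against -0.0072 as deposited, and the split was 1276 higher and 1532 lower, so small falls of whole gene groups depend on the scaling.

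The CTL_6h libraries were not equally alike. On the second principal component of the 6 libraries, with 15.6% of the variance, CTL_6h_3 lay at -25.2, against 4.44 for CTL_6h_2 and 18.5 for CTL_6h_4. Of 1969 called genes with at least 5 FPKM, 47 were 2-fold or more below both other libraries in CTL_6h_3, 41 of them risers, and 11 were as far above. CTL_6h_4 alone held skeletal muscle transcripts, such as actin Acta1 at 23.2 FPKM and creatine kinase Ckm at 20.1 FPKM, both at 0 in the other 5 libraries. The summed FPKM of 26 muscle genes was 7.1, 6.34 and 170.4 FPKM in CTL_6h livers, against 10.9, 7.88 and 4.17 FPKM in CTL_0h livers. Without CTL_6h_2, 1100 genes rose and 729 fell, without CTL_6h_3 1469 rose and 1120 fell, and without CTL_6h_4 1311 rose and 905 fell. Small counts were unsteady: of 41 counts of 1 or 2 called members that the gene lists below gave in 1 direction, 33 moved by over 1.5 times when 1 control library was left out.

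Promoters of 8 risers are printed here, picked after their values were seen, because each holds the element known for the stress programme its gene belongs to. Each run is RefSeq's sequence on GRCm38.p6, from 250 bases before to 50 after the transcription start, 5′ to 3′ on the gene's strand, with the element in capitals. The ATF4 composite element (TGATGNAA) is marked in Atf3 (chr1:191183284-191183583 on the minus strand), Chac1 (chr2:119350992-119351291 on the plus strand), Asns (chr6:7693160-7693459 on the minus strand) and Aars (chr8:111033592-111033891 on the plus strand). The heat shock element (GAA and TTC units in alternation, with NN between them) is marked in Hsph1 (chr5:149636287-149636586 on the minus strand), and the core of the antioxidant response element (TGACNNNGC) in Srxn1 (chr2:152105274-152105573 on the plus strand). The CArG box of serum response factor is marked in Actg1 (chr11:120348446-120348745 on the minus strand) and the cAMP response element (TGACGTCA) in Btg2 (chr1:134079106-134079405 on the minus strand). Both strands were searched, so the capitals can be the reverse complement of the letters given, and a match describes letters, not binding. Where lists were counted, most promoters lacked the element. The ATF4 element was in 22.2% of 18 integrated stress response promoters (2.12% of all tested). The heat shock element was in 8.57% of 35 chaperone promoters (0.375% of all tested), and the cAMP response element in 9.09% of 22 immediate early promoters (3.37% of all tested).
Atf3: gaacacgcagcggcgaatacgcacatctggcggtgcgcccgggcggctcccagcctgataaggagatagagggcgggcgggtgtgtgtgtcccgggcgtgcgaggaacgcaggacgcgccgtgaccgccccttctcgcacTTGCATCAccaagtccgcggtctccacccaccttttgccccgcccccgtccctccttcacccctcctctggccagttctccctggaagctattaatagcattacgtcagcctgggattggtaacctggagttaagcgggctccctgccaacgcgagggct
Chac1: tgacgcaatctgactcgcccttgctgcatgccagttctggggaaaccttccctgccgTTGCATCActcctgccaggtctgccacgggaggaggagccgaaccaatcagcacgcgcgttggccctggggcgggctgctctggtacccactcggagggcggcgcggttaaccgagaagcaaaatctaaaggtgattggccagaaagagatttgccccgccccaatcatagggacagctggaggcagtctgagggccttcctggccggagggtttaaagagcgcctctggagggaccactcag
Asns: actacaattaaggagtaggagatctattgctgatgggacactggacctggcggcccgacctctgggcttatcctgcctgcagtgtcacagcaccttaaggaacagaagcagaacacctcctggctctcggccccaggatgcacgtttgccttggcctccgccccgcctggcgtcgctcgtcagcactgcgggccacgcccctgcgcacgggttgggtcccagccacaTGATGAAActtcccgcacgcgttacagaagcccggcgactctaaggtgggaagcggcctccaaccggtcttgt
Aars: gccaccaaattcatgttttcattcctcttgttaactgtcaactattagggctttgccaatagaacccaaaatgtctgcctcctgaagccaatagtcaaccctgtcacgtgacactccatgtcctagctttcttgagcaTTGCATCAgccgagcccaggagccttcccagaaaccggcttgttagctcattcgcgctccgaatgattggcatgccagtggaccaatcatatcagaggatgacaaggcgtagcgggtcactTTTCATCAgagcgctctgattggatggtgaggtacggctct
Hsph1: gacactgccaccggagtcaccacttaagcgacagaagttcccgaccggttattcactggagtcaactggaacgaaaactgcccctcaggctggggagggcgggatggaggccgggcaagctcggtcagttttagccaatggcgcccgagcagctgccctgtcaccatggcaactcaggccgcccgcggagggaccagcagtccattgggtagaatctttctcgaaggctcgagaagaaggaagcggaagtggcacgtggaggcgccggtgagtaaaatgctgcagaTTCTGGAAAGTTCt
Srxn1: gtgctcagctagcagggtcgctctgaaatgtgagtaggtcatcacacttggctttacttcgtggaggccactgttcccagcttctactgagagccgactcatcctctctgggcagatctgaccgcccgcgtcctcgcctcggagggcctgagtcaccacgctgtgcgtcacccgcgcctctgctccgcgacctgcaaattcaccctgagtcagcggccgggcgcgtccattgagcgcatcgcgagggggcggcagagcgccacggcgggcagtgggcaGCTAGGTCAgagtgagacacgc
Actg1: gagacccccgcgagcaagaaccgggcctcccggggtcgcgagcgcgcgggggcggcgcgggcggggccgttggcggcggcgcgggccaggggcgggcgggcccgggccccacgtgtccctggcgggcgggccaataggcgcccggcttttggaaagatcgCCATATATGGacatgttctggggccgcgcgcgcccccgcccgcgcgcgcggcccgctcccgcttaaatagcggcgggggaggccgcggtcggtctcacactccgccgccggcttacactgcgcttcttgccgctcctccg
Btg2: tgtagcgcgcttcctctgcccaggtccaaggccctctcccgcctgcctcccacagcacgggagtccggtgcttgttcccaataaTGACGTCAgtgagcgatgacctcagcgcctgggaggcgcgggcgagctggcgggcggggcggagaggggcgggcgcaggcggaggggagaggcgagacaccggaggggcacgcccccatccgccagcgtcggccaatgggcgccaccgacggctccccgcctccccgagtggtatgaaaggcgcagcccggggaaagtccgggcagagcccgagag

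Stress-induced transcription factors were among the largest rises. Atf3, a bZIP factor induced by many stresses, had 432, 513 and 446 FPKM in CTL_6h livers, against 1.01, 0.208 and 0.484 FPKM in CTL_0h livers. Maff, a small Maf protein that pairs with NRF2, had 289, 268 and 221 FPKM in CTL_6h livers, against 2.54, 1.21 and 1.61 FPKM in CTL_0h livers. Fos, an AP-1 subunit, had 242, 164 and 188 FPKM in CTL_6h livers, against 2.6, 1.37 and 0.304 FPKM in CTL_0h livers. In these 3 genes every CTL_6h library lay far above every CTL_0h library, with Fos highest in CTL_6h_2 and Atf3 highest in CTL_6h_3. The differences were 8.24 ± 0.18, limma adjusted p = 1.96e-11 for Atf3, 6.57 ± 0.17, limma adjusted p = 6.56e-11 for Maff and 6.46 ± 0.45, limma adjusted p = 8.83e-07 for Fos. Jun, the partner of Fos, had 917, 867 and 1010.4 FPKM in CTL_6h livers, against 31.9, 17 and 18.5 FPKM in CTL_0h livers, and its libraries at 6 h were close to each other (5.36 ± 0.23, limma adjusted p = 6.77e-09). Mafk rose less (2.54 ± 0.17, limma adjusted p = 6.48e-07), and Mafg, at 44.4, 39.4 and 39.3 FPKM in CTL_6h livers, against 29, 29 and 33.8 FPKM in CTL_0h livers, did not pass the test (0.41 ± 0.15, limma adjusted p = 0.0643). Of 12 AP-1 and small Maf genes tested, 10 rose and 0 fell, against 15.2% and 11.8% of all genes, and their median was 3.30. The shares of all genes are the background for every list count that follows. List counts cover tested members only. Members under 1 FPKM in all CTL_0h livers could be tested only through other libraries, so the shares that rose depend in part on the filter.

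Other immediate early genes rose in 25 of 29, with 1 lower and a median of 1.71. Egr1, a zinc-finger factor downstream of ERK, had 397, 302 and 341 FPKM in CTL_6h livers, against 8.29, 3.85 and 4.66 FPKM in CTL_0h livers. Csrnp1, a nuclear factor, had 75.4, 54.2 and 69.5 FPKM in CTL_6h livers, against 2.61, 2.85 and 2.81 FPKM in CTL_0h livers. Id3, an inhibitor of basic helix-loop-helix factors, had 570.1, 455 and 516 FPKM in CTL_6h livers, against 51.8, 43.7 and 34.7 FPKM in CTL_0h livers. In all 3 genes the groups were wide apart (5.77 ± 0.29, limma adjusted p = 3.73e-08 for Egr1, 4.15 ± 0.21, limma adjusted p = 4.20e-08 for Csrnp1 and 3.55 ± 0.25, limma adjusted p = 9.45e-07 for Id3). Btg2, an antiproliferative adaptor of mRNA deadenylation whose promoter is printed above, had 171, 88.5 and 115 FPKM in CTL_6h livers, against 7.79, 2.8 and 3.33 FPKM in CTL_0h livers. Zfp36, which binds AU-rich mRNAs and speeds their decay, had 472, 357 and 381 FPKM in CTL_6h livers, against 96.9, 66.1 and 55.8 FPKM in CTL_0h livers. Myc, a growth-promoting factor, had 47.5, 52.5 and 40.6 FPKM in CTL_6h livers, against 3.28, 2.55 and 1.71 FPKM in CTL_0h livers. These rises were 4.53 ± 0.39, limma adjusted p = 6.10e-06 for Btg2, 2.48 ± 0.30, limma adjusted p = 9.45e-05 for Zfp36 and 3.79 ± 0.22, limma adjusted p = 1.62e-07 for Myc, and no library of one group reached the other. Nr4a1, an orphan nuclear receptor, had 69.9, 10.3 and 46.9 FPKM in CTL_6h livers, against 3.17, 0.656 and 2.03 FPKM in CTL_0h livers and was several times lower in CTL_6h_3 than in its companions. Its difference was 3.61 ± 0.65, limma adjusted p = 0.00165, and 4.40 without CTL_6h_3.

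Kruppel-like factors split by member. Klf6, induced early in injured liver cells, had 44.6, 37.9 and 34.8 FPKM in CTL_6h livers, against 2.1, 1.22 and 1.17 FPKM in CTL_0h livers. Klf15, which promotes amino acid breakdown in the fasted liver, had 30.2, 40.2 and 28.9 FPKM in CTL_6h livers, against 83.5, 89.4 and 88.9 FPKM in CTL_0h livers. Klf2 overlapped between the groups, at 16.1, 4.68 and 12.7 FPKM in CTL_6h livers, against 9.24, 7.08 and 7.78 FPKM in CTL_0h livers. Klf6 rose (4.02 ± 0.16, limma adjusted p = 5.12e-09), as did Klf3, Klf9 and Klf10, Klf15 fell (-1.38 ± 0.20, limma adjusted p = 3.68e-04), and Klf2 did not pass the test (0.29 ± 0.33, limma adjusted p = 0.547), though it did without CTL_6h_3 (0.77, limma adjusted p = 0.0236). Of 12 tested members 6 rose and 1 fell.

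Phosphatases that end MAP kinase signalling rose together. Dusp8, which acts on JNK and p38, had 9.22, 8.42 and 9.41 FPKM in CTL_6h livers, against 0.099, 0.164 and 0.127 FPKM in CTL_0h livers. Dusp5, a nuclear ERK phosphatase, had 23, 8.23 and 13.7 FPKM in CTL_6h livers, and in CTL_0h livers it was listed at 0 in 2 libraries and had 0.291 FPKM in CTL_0h_4. Dusp1, which acts on ERK, JNK and p38, had 268, 240.0 and 312 FPKM in CTL_6h livers, against 47.7, 62.7 and 51.8 FPKM in CTL_0h livers. The CTL_6h libraries lay above the CTL_0h libraries in each case, and Dusp5 was lowest in CTL_6h_3. The difference was 3.15 ± 0.23, limma adjusted p = 1.37e-06 for Dusp8 and 2.32 ± 0.35, limma adjusted p = 4.95e-04 for Dusp1. Dusp4, Dusp6 and Dusp10 rose too, while Dusp3, at 11.1, 11.9 and 13.7 FPKM in CTL_6h livers, against 14.3, 11.3 and 14.9 FPKM in CTL_0h livers, did not pass the test (-0.13 ± 0.14, limma adjusted p = 0.545). Of 21 phosphatases and ERK feedback inhibitors 16 were tested, of which 12 rose and 1 fell, with a median of 1.17. Dusp5 and Dusp8 stayed under 1 FPKM in CTL_0h livers and were tested through other libraries, so this share depends on the filter. The kinases upstream moved less: 12 of 26 rose and 2 fell (median 0.38). Map3k5, the apoptosis signal-regulating kinase ASK1, had 13.5, 12.9 and 13 FPKM in CTL_6h livers, against 3.88, 4.85 and 5.61 FPKM in CTL_0h livers. Map2k3, an activator of p38, had 65.3, 48.3 and 57.6 FPKM in CTL_6h livers, against 19.2, 25 and 25.6 FPKM in CTL_0h livers. The p38 gene Mapk14 had 12.7, 15.1 and 11.8 FPKM in CTL_6h livers, against 18.8, 20.7 and 21.8 FPKM in CTL_0h livers. Map3k5 (1.30 ± 0.23, limma adjusted p = 0.00144) and Map2k3 (1.26 ± 0.14, limma adjusted p = 4.06e-05) rose and Mapk14 fell (-0.60 ± 0.13, limma adjusted p = 0.00565).

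**Figure D1:**
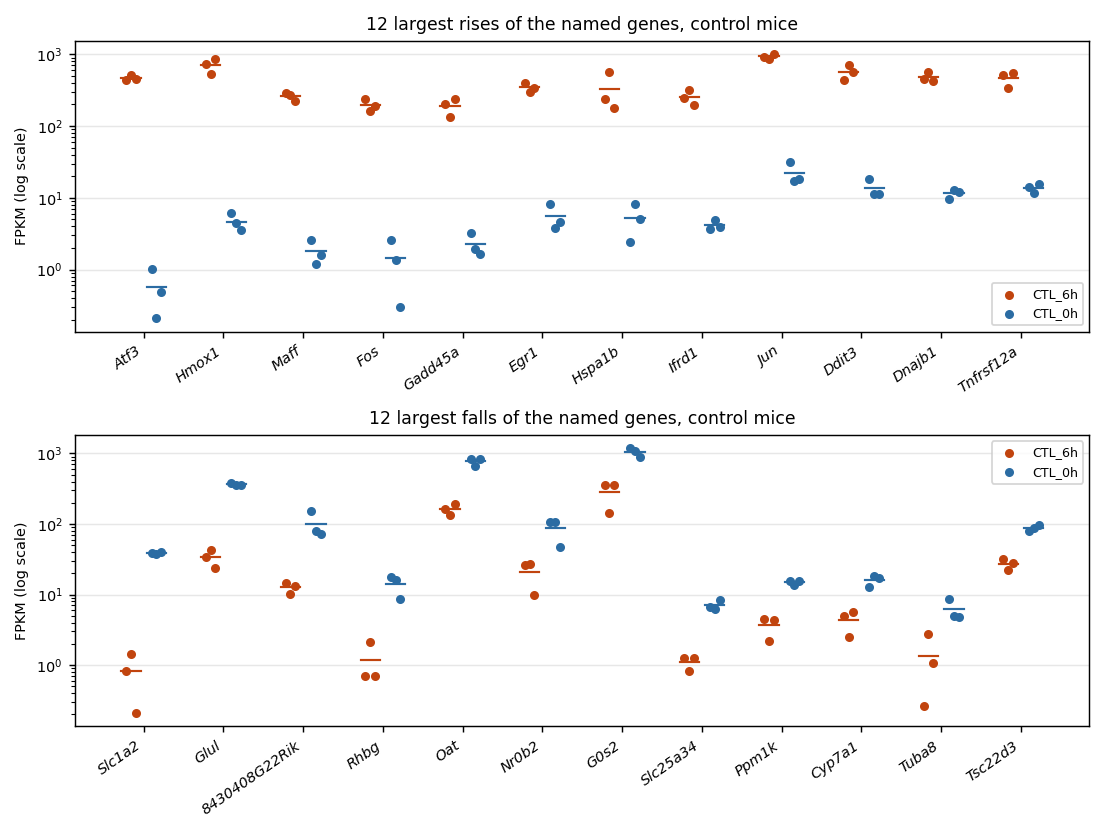
FPKM on a log axis of the 12 largest rises and the 12 largest falls among the named genes, with 1 point for each CTL_6h or CTL_0h library and a bar at the group mean. Atf3 lies at 432 to 513 FPKM in CTL_6h livers and at 0.208 to 1.01 FPKM in CTL_0h livers.

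Among growth factors, Vegfa, the endothelial growth factor that hypoxia induces, had 63.4, 114 and 54 FPKM in CTL_6h livers, against 27.8, 27.8 and 26.6 FPKM in CTL_0h livers. It was highest in CTL_6h_3 and did not overlap (1.38 ± 0.28, limma adjusted p = 0.00351). Hbegf, a ligand of the EGF receptor, had 7.08, 1.45 and 6.48 FPKM in CTL_6h livers, against 0.104, 0.0857 and 0.398 FPKM in CTL_0h livers, and Areg, another such ligand, had 5.38, 0.997 and 5.99 FPKM in CTL_6h livers and was listed at 0 in all CTL_0h livers. Both were several times lower in CTL_6h_3 than in CTL_6h_2 and CTL_6h_4, and both rose (2.16 ± 0.35, limma adjusted p = 7.42e-04 for Hbegf). Neither reached 1 FPKM in any CTL_0h library, so both came to be tested through other libraries. Irs1, the adaptor of the insulin and IGF receptors, had 1.05, 1.01 and 0.75 FPKM in CTL_6h livers, against 1.9, 2.55 and 2.51 FPKM in CTL_0h livers and fell (-0.77 ± 0.15, limma adjusted p = 0.00244). Of 22 growth factor ligands and receptors 5 rose and 3 fell (22.7% and 13.6%, against 15.2% and 11.8% of all genes). Fallers in the list numbered 5 without CTL_6h_3.

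Cytosolic chaperones rose by several steps. Dnajb1, the co-chaperone that stimulates Hsp70, had 459, 568 and 419 FPKM in CTL_6h livers, against 9.67, 12.9 and 12 FPKM in CTL_0h livers. Hsp90aa1, the inducible Hsp90, had 252, 381 and 239.7 FPKM in CTL_6h livers, against 45, 25.9 and 37.9 FPKM in CTL_0h livers. Hsph1, an Hsp70 exchange factor that carries the heat shock element printed above, had 84.5, 176 and 72.7 FPKM in CTL_6h livers, against 9.37, 10.3 and 9.98 FPKM in CTL_0h livers. Each was highest in CTL_6h_3 and had no overlap (5.27 ± 0.17, limma adjusted p = 5.16e-10 for Dnajb1, 2.97 ± 0.22, limma adjusted p = 1.55e-06 for Hsp90aa1 and 3.25 ± 0.29, limma adjusted p = 8.34e-06 for Hsph1). Bag3, which links Hsp70 to autophagy, had 133, 293 and 121 FPKM in CTL_6h livers, against 11.2, 13.2 and 15.3 FPKM in CTL_0h livers, and its partner Hspb8 had 351, 378 and 315 FPKM in CTL_6h livers, against 76.3, 68.6 and 87.9 FPKM in CTL_0h livers. Both rose (3.58 ± 0.29, limma adjusted p = 3.08e-06 for Bag3, 2.15 ± 0.13, limma adjusted p = 1.62e-07 for Hspb8). Hspa1a, an inducible Hsp70, had 30.8, 118 and 16.3 FPKM in CTL_6h livers, against 0.261, 0.288 and 0.894 FPKM in CTL_0h livers. Its near-identical copy Hspa1b had 239.6, 559 and 180.0 FPKM in CTL_6h livers, against 2.43, 8.1 and 5.12 FPKM in CTL_0h livers, and the split of reads between the copies is uncertain. Both were highest in CTL_6h_3. The difference of Hspa1a was 4.79 ± 0.62, limma adjusted p = 1.60e-04, with 4.01 without CTL_6h_3 and 5.40 without CTL_6h_4, and that of Hspa1b was 5.65 ± 0.46, limma adjusted p = 3.54e-06. Of 42 chaperones and co-chaperones 18 rose and 1 fell, with a median of 0.34.

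Other folding and degradation machines moved in few members. Of 14 subunits of the chaperonin TRiC and prefoldin 1 rose and 0 fell. Of 49 proteasome subunits and assembly factors 4 rose and 3 fell, with a median of 0.07; the count of risers was 2 without CTL_6h_2, 7 without CTL_0h_1, 2 without CTL_0h_3 and 2 without CTL_0h_4, and that of fallers 1 without CTL_0h_4. Psmd11, a lid subunit, had 51.4, 64.6 and 45.4 FPKM in CTL_6h livers, against 29.7, 31 and 29.4 FPKM in CTL_0h livers and rose (0.81 ± 0.12, limma adjusted p = 4.65e-04). Psmb4, a core subunit, had 403, 401 and 440.4 FPKM in CTL_6h livers, against 402, 332 and 388 FPKM in CTL_0h livers and did not pass the test (0.15 ± 0.12, limma adjusted p = 0.393). The ubiquitin system moved more, with 10 of 24 members higher and 0 lower. Zfand2a, a ubiquitin-binding protein induced by arsenite, had 54.7, 78.9 and 41.5 FPKM in CTL_6h livers, against 3.28, 3.56 and 3.21 FPKM in CTL_0h livers. It rose without overlap (3.72 ± 0.21, limma adjusted p = 1.08e-07). Sqstm1, the autophagy receptor p62, had 1581, 1704 and 1532 FPKM in CTL_6h livers, against 360.4, 337 and 353 FPKM in CTL_0h livers and was close in the libraries of each group (2.19 ± 0.12, limma adjusted p = 1.01e-07). The autophagy list as a whole had 7 higher and 4 lower of 35, and a median of 0.00. Its shares were 20% and 11.4%, against 15.2% and 11.8% of all genes. Those lower were 2 without CTL_6h_2 and 2 without CTL_0h_4. In mitochondria the chaperonin pair Hspd1 and Hspe1 rose: Hspd1 had 211, 328 and 187 FPKM in CTL_6h livers, against 111, 102 and 107 FPKM in CTL_0h livers (1.14 ± 0.20, limma adjusted p = 0.00145). Clpx, the unfoldase of a mitochondrial protease, had 64.4, 56 and 65.6 FPKM in CTL_6h livers, against 128, 114 and 139.6 FPKM in CTL_0h livers and fell (-1.03 ± 0.12, limma adjusted p = 5.51e-05).

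Genes of the integrated stress response rose in 14 of 23 tested members, with 1 lower and a median of 1.04. Atf4, its central factor, had 193, 157 and 185 FPKM in CTL_6h livers, against 64.5, 51.7 and 54.1 FPKM in CTL_0h livers. Ddit3, which encodes CHOP, had 443, 708 and 562 FPKM in CTL_6h livers, against 18.5, 11.5 and 11.2 FPKM in CTL_0h livers. Ppp1r15a, the phosphatase subunit GADD34 that restores translation, had 63.6, 50.9 and 64.4 FPKM in CTL_6h livers, against 6.54, 6.11 and 3.92 FPKM in CTL_0h livers. None of the 3 overlapped between the groups (1.64 ± 0.19, limma adjusted p = 7.61e-05 for Atf4, 5.29 ± 0.31, limma adjusted p = 1.62e-07 for Ddit3 and 3.23 ± 0.21, limma adjusted p = 4.14e-07 for Ppp1r15a). Chac1, which degrades glutathione, had 68.8, 82.2 and 22.8 FPKM in CTL_6h livers, against 2.91, 0.669 and 0 FPKM in CTL_0h livers. Asns, asparagine synthetase, had 6.74, 14.8 and 5.4 FPKM in CTL_6h livers, against 2.07, 2.46 and 2.16 FPKM in CTL_0h livers. Both carry the element printed above, and CTL_6h_4 was the lowest library of its group in both (4.79 ± 0.49, limma adjusted p = 2.63e-05 for Chac1, 1.52 ± 0.39, limma adjusted p = 0.0119 for Asns). Atf5, a factor made mainly in liver, had 643, 532 and 1034 FPKM in CTL_6h livers, against 1067, 800.1 and 842 FPKM in CTL_0h livers; it overlapped and did not pass the test (-0.34 ± 0.25, limma adjusted p = 0.332).

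Enzymes that charge tRNAs in the cytosol rose in 11 of 22 tested members and fell in 0, with a median of 0.37. Aars, for alanine, had 92.6, 133 and 88.7 FPKM in CTL_6h livers, against 53.6, 63.3 and 60.1 FPKM in CTL_0h livers. Sars, for serine, had 36.1, 39.2 and 38.2 FPKM in CTL_6h livers, against 21.9, 18.3 and 18.5 FPKM in CTL_0h livers. Cars, for cysteine, had 15, 18.3 and 17.4 FPKM in CTL_6h livers, against 9.83, 6.51 and 7.13 FPKM in CTL_0h livers. In each case every CTL_6h library exceeded every CTL_0h library (0.80 ± 0.15, limma adjusted p = 0.00236 for Aars, 0.92 ± 0.13, limma adjusted p = 2.33e-04 for Sars and 1.03 ± 0.16, limma adjusted p = 4.86e-04 for Cars). Kars, for lysine, had 31, 28.6 and 34.7 FPKM in CTL_6h livers, against 25.8, 28.9 and 25.6 FPKM in CTL_0h livers and did not pass the test (0.22 ± 0.11, limma adjusted p = 0.139). Of 14 synthetase promoters 35.7% held the ATF4 composite element, against 2.12% of the 7737 promoters of tested genes.

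In the endoplasmic reticulum 9 of 35 chaperone and unfolded protein response genes rose, 0 fell and the median was 0.23. Hspa5, the lumenal Hsp70 BiP, had 661, 1005 and 695 FPKM in CTL_6h livers, against 164, 199 and 222 FPKM in CTL_0h livers. Xbp1, the factor spliced by the sensor Ern1, had 121, 163 and 89.2 FPKM in CTL_6h livers, against 44.9, 51.8 and 50.8 FPKM in CTL_0h livers. Both rose (1.99 ± 0.18, limma adjusted p = 1.11e-05 for Hspa5, 1.28 ± 0.25, limma adjusted p = 0.0027 for Xbp1). The foldase P4hb had 529.7, 576 and 633 FPKM in CTL_6h livers, against 452, 506 and 492 FPKM in CTL_0h livers and did not pass the test (0.26 ± 0.12, limma adjusted p = 0.125). By library the median of the list was -0.01, 0.42 and 0.23 in CTL_6h replicates 2, 3 and 4, so it lay near 0 in CTL_6h_2.

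Nucleolar factors that build ribosomes rose in 41 of 60, with 0 lower and a median of 0.67. Nop56, a scaffold of box C/D small nucleolar RNPs, had 14.7, 17.3 and 14.2 FPKM in CTL_6h livers, against 4.48, 4.47 and 3.55 FPKM in CTL_0h livers. Nop58, its partner, had 29, 31.6 and 30.1 FPKM in CTL_6h livers, against 12.5, 7.19 and 7.43 FPKM in CTL_0h livers. Gnl3, nucleostemin, had 26.3, 23.5 and 27.3 FPKM in CTL_6h livers, against 9.78, 6.0 and 8.19 FPKM in CTL_0h livers. The rises were modest and even across the CTL_6h libraries (1.67 ± 0.14, limma adjusted p = 4.39e-06 for Nop56, 1.68 ± 0.16, limma adjusted p = 1.64e-05 for Nop58 and 1.59 ± 0.18, limma adjusted p = 6.60e-05 for Gnl3). Nop10, a subunit of box H/ACA particles, had 89.2, 79.95 and 119 FPKM in CTL_6h livers, against 126, 101 and 103 FPKM in CTL_0h livers and did not pass the test (-0.21 ± 0.15, limma adjusted p = 0.333). Translation factors rose in 15 of 42 (median 0.25). Eif4a1, the helicase of the cap-binding complex, had 154, 164 and 138 FPKM in CTL_6h livers, against 80.9, 73.6 and 76.8 FPKM in CTL_0h livers and rose (0.97 ± 0.13, limma adjusted p = 2.22e-04). The elongation factor Eef2 overlapped, at 1158, 873 and 1146 FPKM in CTL_6h livers, against 753, 969 and 905 FPKM in CTL_0h livers, and did not pass the test (0.27 ± 0.15, limma adjusted p = 0.189), though it did without CTL_6h_3 (0.40, limma adjusted p = 0.0418).

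Splicing regulators rose in 23 of 42, with 1 lower and a median of 0.50. Srsf7, an SR protein, had 23, 25.2 and 20.9 FPKM in CTL_6h livers, against 6.4, 5.21 and 7.55 FPKM in CTL_0h livers. Clk1, a kinase that phosphorylates SR proteins, had 51, 40.8 and 51 FPKM in CTL_6h livers, against 13.2, 12.4 and 14.8 FPKM in CTL_0h livers. Hnrnph1, which binds G-rich RNA, had 40.8, 44.3 and 39.1 FPKM in CTL_6h livers, against 14.9, 14.1 and 11.4 FPKM in CTL_0h livers. The groups did not overlap in any of them (1.71 ± 0.19, limma adjusted p = 5.51e-05 for Srsf7, 1.74 ± 0.22, limma adjusted p = 1.56e-04 for Clk1 and 1.56 ± 0.15, limma adjusted p = 1.92e-05 for Hnrnph1). Srsf9 had 48.7, 44.7 and 51.9 FPKM in CTL_6h livers, against 51.9, 51.1 and 49.8 FPKM in CTL_0h livers and did not pass the test (-0.07 ± 0.11, limma adjusted p = 0.648). Rbm3, an RNA-binding protein known from cold stress, had 43.7, 51.7 and 44.1 FPKM in CTL_6h livers, against 15.5, 18.5 and 17 FPKM in CTL_0h livers and rose (1.40 ± 0.18, limma adjusted p = 1.71e-04). Of 33 mRNA decay factors 9 rose, or 5 without CTL_6h_2, and 1 fell.

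**Figure D2:**
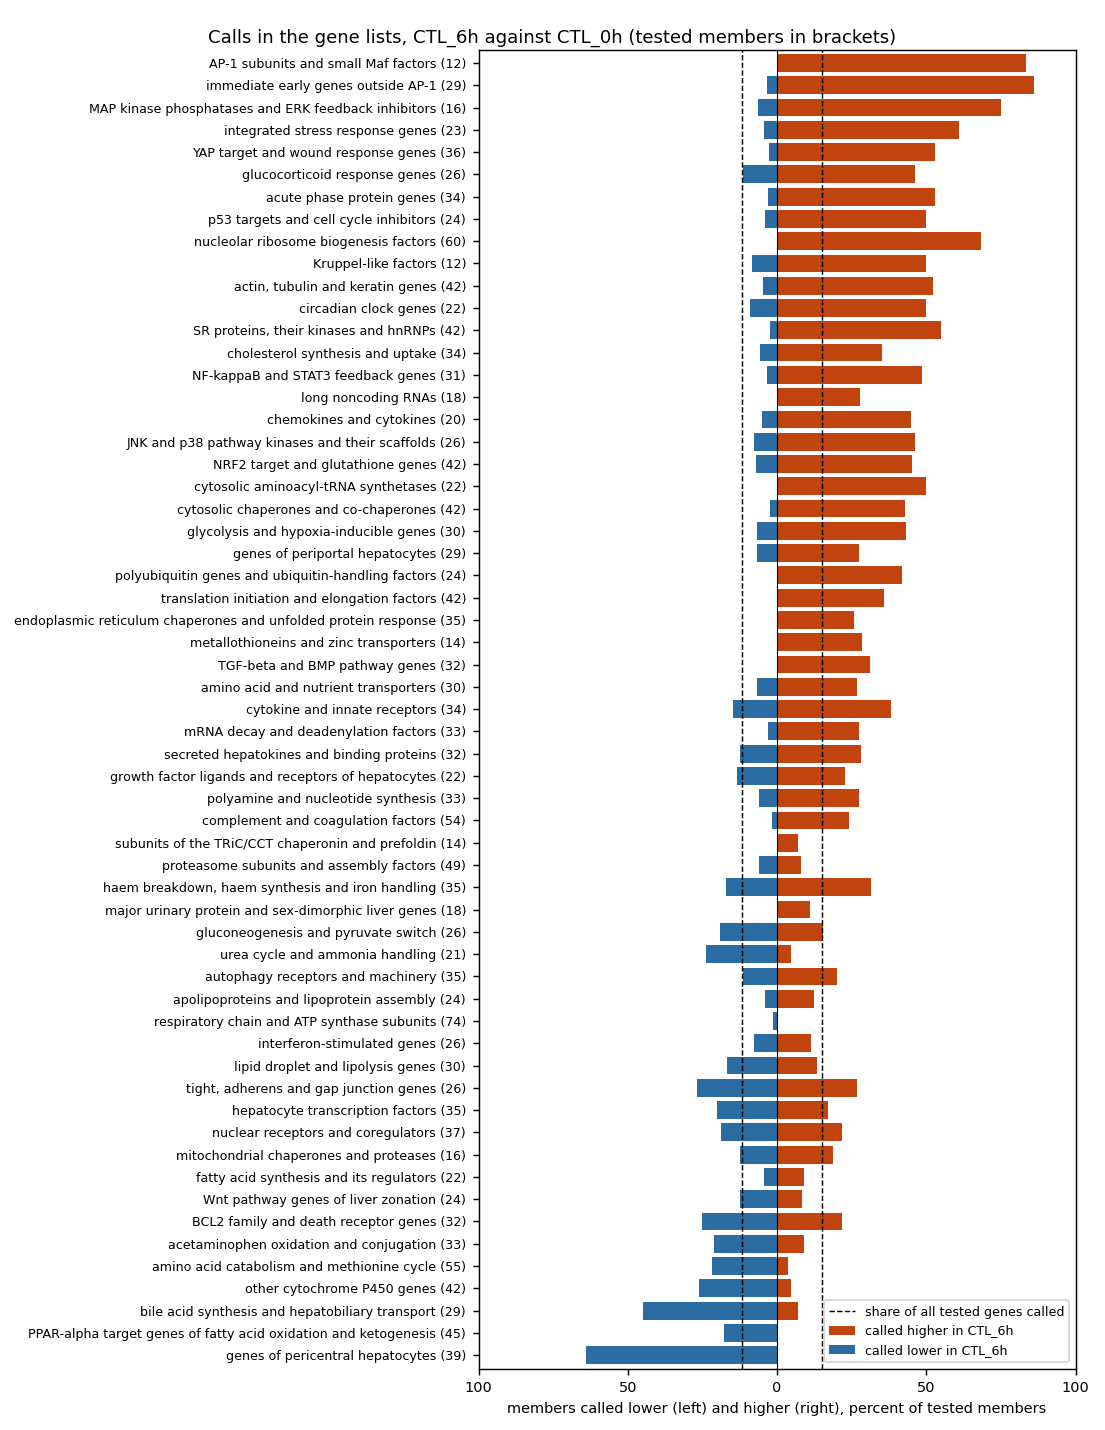
Percent of the tested members of each gene list that rose (right) or fell (left) in CTL_6h against CTL_0h livers, with dashed lines at the 15.2% and 11.8% of all tested genes. Ribosome biogenesis has 41 of 60 members higher, and the pericentral list has 25 of 39 lower.

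Genes of the NRF2 and glutathione system rose in 19 of 42 and fell in 3 (median 0.37). Hmox1, the haem-degrading enzyme at chr8:75093621-75100589 (GRCm38), had 743, 531 and 863 FPKM in CTL_6h livers, against 6.11, 4.4 and 3.5 FPKM in CTL_0h livers. Gclc, the rate-limiting enzyme of glutathione synthesis, had 256, 449.7 and 197 FPKM in CTL_6h livers, against 32.5, 48.8 and 37.3 FPKM in CTL_0h livers. Srxn1, which repairs oxidised peroxiredoxins and carries the element printed above, had 304, 373 and 288 FPKM in CTL_6h livers, against 25, 21.6 and 26.5 FPKM in CTL_0h livers. No CTL_0h library came near the CTL_6h libraries, with Gclc and Srxn1 highest in CTL_6h_3 and Hmox1 lowest there (6.97 ± 0.27, limma adjusted p = 3.34e-09 for Hmox1, 2.83 ± 0.24, limma adjusted p = 5.39e-06 for Gclc and 3.67 ± 0.17, limma adjusted p = 1.42e-08 for Srxn1). Osgin1, an oxidative stress-induced growth inhibitor, had 1041, 813 and 1055 FPKM in CTL_6h livers, against 31.9, 55 and 37 FPKM in CTL_0h livers (4.55 ± 0.28, limma adjusted p = 2.43e-07). Nfe2l2, which encodes NRF2 itself, had 23.7, 18.7 and 19.4 FPKM in CTL_6h livers, against 8.54, 12.5 and 12 FPKM in CTL_0h livers and rose (0.86 ± 0.16, limma adjusted p = 0.00215). Catalase, Cat, had 690.2, 668 and 579.5 FPKM in CTL_6h livers, against 863, 1084 and 1024 FPKM in CTL_0h livers and fell (-0.61 ± 0.13, limma adjusted p = 0.00396). Gpx1, the main cytosolic glutathione peroxidase, had 3233, 2094 and 3884 FPKM in CTL_6h livers, against 3521, 2585 and 2717 FPKM in CTL_0h livers and did not pass the test (0.03 ± 0.21, limma adjusted p = 0.937). Of 36 promoters of this list 27.8% held the core of the antioxidant response element, against 15.4% of the promoters of all tested genes. That share was not particular to this list. It was 27.8% for the integrated stress response, 28.6% for the synthetases and 27.3% for AP-1 and small Maf genes. Lower shares were found for proteasome (19.5%), chaperone (17.1%), immediate early (9.09%) and sterol genes (8.7%).

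Metallothioneins, small cysteine-rich proteins that bind zinc, rose strongly. Mt1 had 17701, 14224 and 21728 FPKM in CTL_6h livers, against 2251, 877 and 1749 FPKM in CTL_0h livers, and Mt2 had 6648, 6235 and 7450.0 FPKM in CTL_6h livers, against 706, 202 and 498 FPKM in CTL_0h livers. Mt1 and Mt2 took up 3.48%, 3.3% and 3.8% of the summed FPKM of tested genes in CTL_6h livers, against 0.427%, 0.187% and 0.377% in CTL_0h livers. Every CTL_6h library lay above every CTL_0h library (3.54 ± 0.34, limma adjusted p = 1.62e-05 for Mt1, 4.02 ± 0.46, limma adjusted p = 5.66e-05 for Mt2). Slc39a14, an importer of zinc and iron, had 66.3, 43.8 and 64.6 FPKM in CTL_6h livers, against 16.5, 15.9 and 14.9 FPKM in CTL_0h livers and rose (1.80 ± 0.17, limma adjusted p = 1.20e-05). Of 14 metallothionein and zinc transporter genes 4 rose and 0 fell. Among genes of haem and iron 11 of 35 rose and 6 fell. The members that fell numbered 3 without CTL_0h_3 and 3 without CTL_0h_4. Fth1, ferritin heavy chain, had 5428, 4433 and 5867 FPKM in CTL_6h livers, against 3211, 2631 and 2615 FPKM in CTL_0h livers (0.89 ± 0.15, limma adjusted p = 0.00108). Hfe2, the hemojuvelin co-receptor that drives hepcidin, had 21.9, 28.1 and 27.1 FPKM in CTL_6h livers, against 47.3, 48.3 and 47 FPKM in CTL_0h livers and fell (-0.87 ± 0.12, limma adjusted p = 2.51e-04).

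Inhibitors of the cell cycle and p53 targets rose in 12 of 24 and fell in 1, with a median of 0.75. Fallers came to 3 without CTL_6h_3. Gadd45a, a growth arrest gene, had 202, 133 and 239 FPKM in CTL_6h livers, against 3.18, 1.94 and 1.63 FPKM in CTL_0h livers. Mdm2, the ubiquitin ligase of p53, had 32.5, 27.1 and 29.7 FPKM in CTL_6h livers, against 4.67, 6.0 and 6.0 FPKM in CTL_0h livers. Cdkn1a, the kinase inhibitor p21, had 257, 138 and 229 FPKM in CTL_6h livers, against 58.7, 28.5 and 51.4 FPKM in CTL_0h livers. All 3 were free of overlap (5.87 ± 0.25, limma adjusted p = 6.77e-09 for Gadd45a, 2.23 ± 0.23, limma adjusted p = 2.73e-05 for Mdm2 and 2.16 ± 0.37, limma adjusted p = 0.00126 for Cdkn1a). Its relative Gadd45g overlapped, at 252, 384 and 355 FPKM in CTL_6h livers, against 357, 95.4 and 148 FPKM in CTL_0h livers, and did not pass the test (0.92 ± 0.54, limma adjusted p = 0.226). The BCL2 family and death receptor list was split, with 7 higher and 8 lower of 32. Mcl1, which blocks apoptosis, had 73.5, 47.7 and 71.4 FPKM in CTL_6h livers, against 18, 19.9 and 19.4 FPKM in CTL_0h livers, and Bbc3, the killer protein PUMA, had 28.7, 18.8 and 31.4 FPKM in CTL_6h livers, against 11.5, 12.4 and 7.75 FPKM in CTL_0h livers. Both rose (1.67 ± 0.16, limma adjusted p = 1.43e-05 for Mcl1, 1.23 ± 0.20, limma adjusted p = 7.42e-04 for Bbc3). Bik, another killer protein, had 2.36, 3.71 and 1.72 FPKM in CTL_6h livers, against 14.3, 9.28 and 6.96 FPKM in CTL_0h livers and fell (-1.62 ± 0.27, limma adjusted p = 8.56e-04). Tnfrsf12a, the TWEAK receptor, had 507, 337 and 557 FPKM in CTL_6h livers, against 14.3, 11.6 and 15.7 FPKM in CTL_0h livers and was the strongest riser of the list (4.96 ± 0.28, limma adjusted p = 1.35e-07).

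Wound response and YAP target genes rose in 19 of 36 and fell in 1, with a median of 0.89. Cyr61, a matricellular protein, had 169, 92.1 and 190.2 FPKM in CTL_6h livers, against 3.55, 6.69 and 5.34 FPKM in CTL_0h livers. Phlda1, a pleckstrin-domain protein, had 201, 187 and 195 FPKM in CTL_6h livers, against 15.6, 18.4 and 16.4 FPKM in CTL_0h livers. Cyr61 was lowest in CTL_6h_3, Phlda1 was even, and neither overlapped (4.58 ± 0.27, limma adjusted p = 1.67e-07 for Cyr61 and 3.46 ± 0.15, limma adjusted p = 6.77e-09 for Phlda1). Sox9, a factor of biliary and progenitor cells, had 19.6, 9.52 and 21.4 FPKM in CTL_6h livers, against 1.85, 2.25 and 2.75 FPKM in CTL_0h livers and rose (2.38 ± 0.26, limma adjusted p = 4.13e-05), while the bile duct keratin Krt19 had 1.72, 0.466 and 2.35 FPKM in CTL_6h livers, against 0.935, 1.86 and 0.958 FPKM in CTL_0h livers and did not pass the test (0.10 ± 0.36, limma adjusted p = 0.868).

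Cytoskeletal genes rose in 22 of 42 and fell in 2 (median 0.60). Actg1, cytoplasmic gamma-actin, whose promoter with its CArG box is printed above, had 245, 108 and 232 FPKM in CTL_6h livers, against 17, 14.1 and 14.7 FPKM in CTL_0h livers. Krt8, the main keratin of hepatocytes, had 1730.2, 548 and 1917 FPKM in CTL_6h livers, against 141, 158 and 165 FPKM in CTL_0h livers. Both were 2-fold or more lower in CTL_6h_3 than in the other CTL_6h libraries, yet above all CTL_0h libraries (3.50 ± 0.40, limma adjusted p = 6.14e-05 for Actg1, 2.97 ± 0.40, limma adjusted p = 2.11e-04 for Krt8). Tubb6, a beta-tubulin, had 68.2, 56.4 and 72 FPKM in CTL_6h livers, against 7.78, 6.08 and 6.28 FPKM in CTL_0h livers, and Tubb2a had 266, 291 and 278 FPKM in CTL_6h livers, against 56.6, 46.5 and 60.6 FPKM in CTL_0h livers. Both rose evenly (3.11 ± 0.18, limma adjusted p = 1.62e-07 for Tubb6, 2.34 ± 0.20, limma adjusted p = 6.56e-06 for Tubb2a). Tuba8, an alpha-tubulin, had 0.259, 2.74 and 1.07 FPKM in CTL_6h livers, against 8.76, 4.89 and 4.81 FPKM in CTL_0h livers and fell (-1.70 ± 0.35, limma adjusted p = 0.00361). Pfn1, which binds actin monomers, had 471, 434 and 528 FPKM in CTL_6h livers, against 482, 447 and 455 FPKM in CTL_0h livers and did not pass the test (0.05 ± 0.13, limma adjusted p = 0.827). Junction genes split, with 7 higher and 7 lower of 26. The members that fell numbered 4 without CTL_6h_2. Cldn14, a tight junction claudin, had 86.5, 31.5 and 102 FPKM in CTL_6h livers, against 10.9, 7.98 and 9.37 FPKM in CTL_0h livers, and Cdh1, E-cadherin, had 9.83, 11.5 and 6.85 FPKM in CTL_6h livers, against 1.36, 1.48 and 1.32 FPKM in CTL_0h livers. Both rose (2.68 ± 0.38, limma adjusted p = 3.21e-04 for Cldn14, 2.1 ± 0.22, limma adjusted p = 3.53e-05 for Cdh1). Cldn3, another claudin, had 73.4, 97.5 and 88.9 FPKM in CTL_6h livers, against 218, 225 and 202 FPKM in CTL_0h livers and fell (-1.31 ± 0.18, limma adjusted p = 2.10e-04). Gjb1, connexin 32, had 535, 499.7 and 549 FPKM in CTL_6h livers, against 552, 561 and 535 FPKM in CTL_0h livers and did not pass the test (-0.06 ± 0.11, limma adjusted p = 0.72), while its partner connexin 26, Gjb2, had 179, 190.3 and 171 FPKM in CTL_6h livers, against 84.9, 84.8 and 83.8 FPKM in CTL_0h livers and rose (1.08 ± 0.15, limma adjusted p = 2.99e-04).

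**Figure D3:**
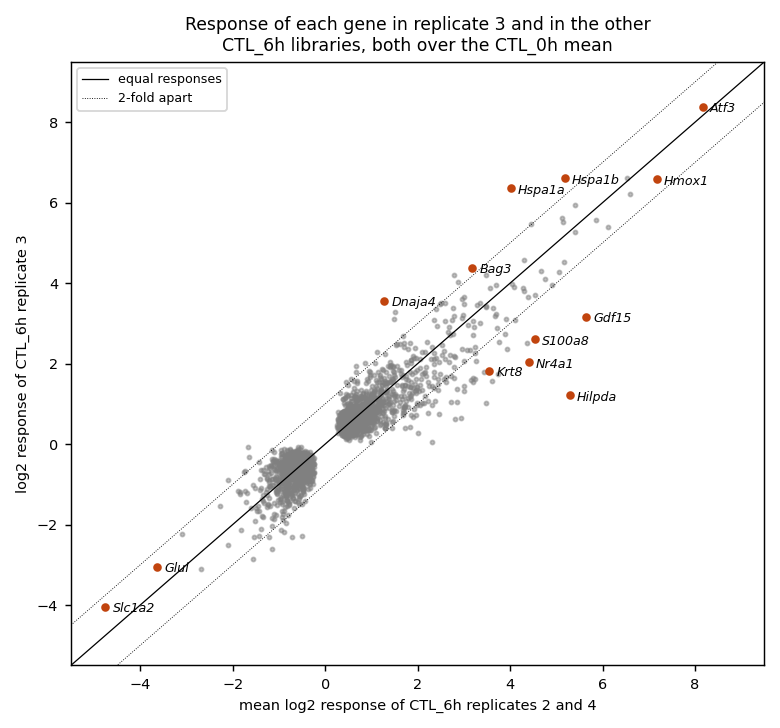
Difference from the CTL_0h mean in log2(FPKM + 1) of the 1969 called genes with at least 5 FPKM, with CTL_6h_3 on the vertical axis, the mean of CTL_6h_2 and CTL_6h_4 on the horizontal axis and 1 point per gene. Hilpda and Gdf15 lie below the diagonal, Hspa1a and Dnaja4 above it.

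Of 38 chemokines and cytokines 20 reached the level for testing, of which 9 rose and 1 fell (median 0.40). Members low in most libraries were not tested, so the share that rose depends on the filter. Risers in the list numbered 5 without CTL_6h_2. Cxcl1, which attracts neutrophils, had 91.4, 52.9 and 90.3 FPKM in CTL_6h livers, against 2.28, 2.13 and 1.09 FPKM in CTL_0h livers. Cxcl10, an interferon-inducible attractant of T cells, had 43.4, 25.2 and 48.1 FPKM in CTL_6h livers, against 3.36, 1.99 and 2.46 FPKM in CTL_0h livers. Cxcl2, a relative of Cxcl1, had 6.63, 2.04 and 9.35 FPKM in CTL_6h livers and was listed at 0 in all CTL_0h livers. All 3 were lowest in CTL_6h_3 among the CTL_6h libraries, and none overlapped (4.79 ± 0.47, limma adjusted p = 1.64e-05 for Cxcl1, 3.44 ± 0.56, limma adjusted p = 7.80e-04 for Cxcl10). Cxcl12, a homeostatic chemokine, had 45.7, 40.1 and 39.8 FPKM in CTL_6h livers, against 98.3, 134 and 99.3 FPKM in CTL_0h livers and fell (-1.37 ± 0.20, limma adjusted p = 3.28e-04). Of 34 cytokine and innate receptors 13 rose and 5 fell. Fallers in the list numbered 3 without CTL_6h_2, 3 without CTL_6h_4 and 2 without CTL_0h_4. Il1r1, the receptor of interleukin-1, had 24, 30.2 and 23.4 FPKM in CTL_6h livers, against 2.72, 2.33 and 3.04 FPKM in CTL_0h livers and rose evenly (2.86 ± 0.18, limma adjusted p = 2.20e-07). Cd14, the co-receptor of bacterial lipopolysaccharide, had 16.6, 5.85 and 25 FPKM in CTL_6h livers, against 1.52, 0.881 and 1.75 FPKM in CTL_0h livers (2.64 ± 0.41, limma adjusted p = 5.45e-04).

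Feedback genes of NF-kappaB and STAT3 rose in 15 of 31 and fell in 1 (median 0.44). Nfkbiz, a nuclear IkappaB protein, had 56.3, 52.1 and 33.2 FPKM in CTL_6h livers, against 1.6, 1.43 and 0.768 FPKM in CTL_0h livers. Socs3, the inhibitor of interleukin-6 signalling, had 37.9, 38.2 and 46.7 FPKM in CTL_6h livers, against 5.64, 3.93 and 2.99 FPKM in CTL_0h livers. Stat3 itself had 43.1, 57.7 and 34.3 FPKM in CTL_6h livers, against 13.7, 15.2 and 14.1 FPKM in CTL_0h livers. The groups were apart in all 3 (4.40 ± 0.40, limma adjusted p = 8.95e-06 for Nfkbiz, 3.04 ± 0.23, limma adjusted p = 2.08e-06 for Socs3 and 1.55 ± 0.17, limma adjusted p = 3.53e-05 for Stat3). Nfkbia, the classic IkappaB, had 82.3, 43.8 and 91.1 FPKM in CTL_6h livers, against 61.6, 45.3 and 46.7 FPKM in CTL_0h livers; it overlapped and did not pass the test (0.44 ± 0.26, limma adjusted p = 0.241), though it did without CTL_6h_3 (0.76, limma adjusted p = 0.0259). Of 26 interferon-stimulated genes 3 rose and 2 fell (11.5% and 7.69%, against 15.2% and 11.8% of all genes), with a median of -0.04. Fallers there were 0 without CTL_6h_2, 1 without CTL_6h_3, 1 without CTL_6h_4, 0 without CTL_0h_1, 1 without CTL_0h_3 and 0 without CTL_0h_4.

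Acute phase genes rose in 18 of 34 and fell in 1, with a median of 0.76. Fgb, a fibrinogen chain, had 3751, 4837 and 3687 FPKM in CTL_6h livers, against 2023, 2050.5 and 1986 FPKM in CTL_0h livers. Serpina3m, a serine protease inhibitor of a family with close copies, had 372, 506 and 335 FPKM in CTL_6h livers, against 132, 131 and 139 FPKM in CTL_0h livers. Lcn2, lipocalin 2, had 159, 204 and 188 FPKM in CTL_6h livers, against 17.1, 46.1 and 22.6 FPKM in CTL_0h livers. Lcn2 varied most at 0 h, and no group overlapped (1.01 ± 0.14, limma adjusted p = 2.59e-04 for Fgb, 1.57 ± 0.15, limma adjusted p = 1.62e-05 for Serpina3m and 2.76 ± 0.44, limma adjusted p = 7.29e-04 for Lcn2). Hp, haptoglobin, had 6198, 6794 and 8186 FPKM in CTL_6h livers, against 6282, 4382 and 5898 FPKM in CTL_0h livers and did not pass the test (0.36 ± 0.21, limma adjusted p = 0.215). Hamp, the iron hormone hepcidin, had 3780.3, 6765 and 4328 FPKM in CTL_6h livers, against 2960.2, 1155 and 2596 FPKM in CTL_0h livers and rose (1.21 ± 0.33, limma adjusted p = 0.0161), but the call was lost without CTL_6h_3 (0.97, limma adjusted p = 0.054) or CTL_0h_3 (0.79, limma adjusted p = 0.0558). Complement and coagulation genes rose in 13 of 54 and fell in 1. Risers came to 8 without CTL_0h_1 and 8 without CTL_0h_3, and 7 under upper-quartile scaling. C3, the central complement protein, had 1338, 1327 and 1447 FPKM in CTL_6h livers, against 871, 983 and 993 FPKM in CTL_0h livers and rose (0.53 ± 0.12, limma adjusted p = 0.00563), and prothrombin, F2, had 1681, 1310.1 and 1698 FPKM in CTL_6h livers, against 1319, 1411 and 1446 FPKM in CTL_0h livers and did not pass the test (0.16 ± 0.13, limma adjusted p = 0.398). Thbd, thrombomodulin, had 7.26, 1.52 and 8.41 FPKM in CTL_6h livers, against 0.324, 0.161 and 0.166 FPKM in CTL_0h livers and was low in CTL_6h_3 (2.26 ± 0.42, limma adjusted p = 0.00187, and 2.86 without CTL_6h_3).

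Genes of hepatocytes around the central vein fell in 25 of 39 members and rose in 0, with a median of -1.10. Slc1a2, a glutamate transporter at chr2:102658659-102790784 (GRCm38), had 0.823, 1.44 and 0.211 FPKM in CTL_6h livers, against 39.2, 37.6 and 40.5 FPKM in CTL_0h livers. Glul, glutamine synthetase at chr1:153899944-153909723 (GRCm38), had 33.7, 43.1 and 23.9 FPKM in CTL_6h livers, against 377, 356 and 357 FPKM in CTL_0h livers. Slc22a3, an organic cation transporter, had 0.265, 0.284 and 0.164 FPKM in CTL_6h livers, against 4.14, 4.56 and 3.54 FPKM in CTL_0h livers. The CTL_0h libraries were close to each other in all 3, and every CTL_6h library lay far below them (-4.52 ± 0.21, limma adjusted p = 1.42e-08 for Slc1a2, -3.44 ± 0.20, limma adjusted p = 1.35e-07 for Glul and -2.03 ± 0.13, limma adjusted p = 4.01e-07 for Slc22a3). Cyp2e1 had 3261, 1840.1 and 2708 FPKM in CTL_6h livers, against 5395, 4991 and 5888 FPKM in CTL_0h livers and was lowest in CTL_6h_3 (-1.10 ± 0.19, limma adjusted p = 0.00139). Cyp1a2, a further APAP-oxidising enzyme, had 101, 75.5 and 101 FPKM in CTL_6h livers, against 269, 221 and 301 FPKM in CTL_0h livers (-1.51 ± 0.21, limma adjusted p = 2.53e-04). Oat, ornithine aminotransferase, had 164, 134 and 193 FPKM in CTL_6h livers, against 840.3, 664 and 821 FPKM in CTL_0h livers and fell (-2.25 ± 0.28, limma adjusted p = 1.27e-04), as did the ammonia transporter Rhbg (-2.81 ± 0.34, limma adjusted p = 1.02e-04). Cyp27a1, a sterol hydroxylase, had 316, 254 and 286 FPKM in CTL_6h livers, against 275, 294 and 331 FPKM in CTL_0h livers and did not pass the test (-0.07 ± 0.16, limma adjusted p = 0.767). Wnt signals maintain this zone, and their part in these falls was not tested. Notum, a Wnt-inactivating target, had 17.1, 15.7 and 16.1 FPKM in CTL_6h livers, against 28.4, 25.3 and 24.8 FPKM in CTL_0h livers, and Tbx3, a repressor downstream of Wnt, had 4.13, 5.76 and 4.99 FPKM in CTL_6h livers, against 8.96, 14.1 and 13.4 FPKM in CTL_0h livers. Both fell (-0.65 ± 0.12, limma adjusted p = 0.00147 for Notum, -1.13 ± 0.26, limma adjusted p = 0.00728 for Tbx3). Of the Wnt list 2 rose, Axin1 and Fzd5, and 3 fell of 24 (8.33% and 12.5%, against 15.2% and 11.8% of all genes). Its fallers numbered 6 without CTL_0h_1, and its risers 1 without CTL_6h_2, 1 without CTL_6h_3, 0 without CTL_6h_4 and 0 without CTL_0h_1.

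Genes of periportal hepatocytes had 8 higher and 2 lower of 29 and a median of 0.31. Sds, serine dehydratase, had 709, 555 and 915 FPKM in CTL_6h livers, against 415, 274 and 453 FPKM in CTL_0h livers and rose (0.93 ± 0.23, limma adjusted p = 0.00974). Arg1, arginase of the urea cycle, had 1499, 2329 and 1317 FPKM in CTL_6h livers, against 1222, 1134 and 1577 FPKM in CTL_0h livers and did not pass the test (0.36 ± 0.20, limma adjusted p = 0.203). G6pc, glucose-6-phosphatase, had 111, 126 and 106 FPKM in CTL_6h livers, against 211, 258 and 227 FPKM in CTL_0h livers, and Pck1, which commits carbon to gluconeogenesis, had 1045, 1246 and 1066 FPKM in CTL_6h livers, against 1601, 1783 and 1755 FPKM in CTL_0h livers. Both fell (-1.02 ± 0.24, limma adjusted p = 0.0075 for G6pc, -0.62 ± 0.13, limma adjusted p = 0.00432 for Pck1). The forkhead factor Foxo3 had 34.1, 41 and 39.8 FPKM in CTL_6h livers, against 1.77, 4.04 and 2.7 FPKM in CTL_0h livers and rose (3.40 ± 0.25, limma adjusted p = 1.30e-06), and its relative Foxo1 rose less (0.59 ± 0.12, limma adjusted p = 0.00409).

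**Figure D4:**
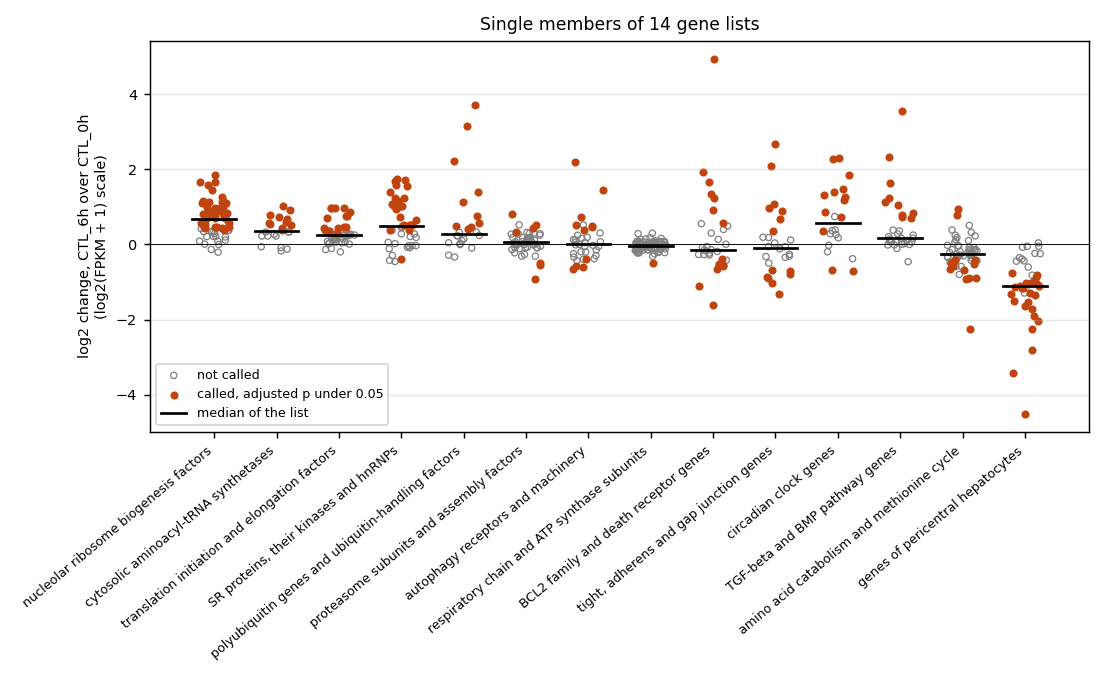
Log2 difference of single members of 14 gene lists, CTL_6h minus CTL_0h, with 1 point per tested member, filled where called and open where not, and a bar at the median of the list. Pericentral genes lie mostly below 0 and ribosome biogenesis genes mostly above it.

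Of 33 genes of APAP oxidation and conjugation 3 rose and 7 fell. The members that fell numbered 4 without CTL_6h_3. Ugt2b1, a glucuronosyltransferase with close copies, had 67, 59.2 and 67.6 FPKM in CTL_6h livers, against 105, 113 and 109.9 FPKM in CTL_0h livers. Papss2, which makes the sulphate donor, had 13.3, 10.4 and 9.1 FPKM in CTL_6h livers, against 16.1, 24.4 and 27.6 FPKM in CTL_0h livers. Both fell (-0.75 ± 0.14, limma adjusted p = 0.0017 for Ugt2b1, -0.97 ± 0.21, limma adjusted p = 0.00451 for Papss2). Gstp1, a glutathione transferase, had 2659, 3026 and 2928 FPKM in CTL_6h livers, against 1817, 1568 and 1825 FPKM in CTL_0h livers and rose (0.73 ± 0.15, limma adjusted p = 0.0045), while Gstm1 had 612, 529 and 548 FPKM in CTL_6h livers, against 594, 655 and 501 FPKM in CTL_0h livers and did not pass the test (-0.05 ± 0.25, limma adjusted p = 0.914). Other P450 genes fell in 11 of 42 and rose in 2. Cyp2c37 had 34.6, 31.6 and 33.7 FPKM in CTL_6h livers, against 111, 82 and 103 FPKM in CTL_0h livers and fell (-1.53 ± 0.17, limma adjusted p = 3.99e-05), though members of the Cyp2c cluster are similar enough that reads may be shared. Cyp2a12 had 582, 534 and 653 FPKM in CTL_6h livers, against 346, 314 and 328 FPKM in CTL_0h livers and rose (0.84 ± 0.12, limma adjusted p = 4.17e-04).

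Fat-oxidation genes under PPAR-alpha fell in 8 of 45 and rose in 0, with a median of -0.41. The count was 5 without CTL_6h_2 and 18 under upper-quartile scaling. Ppara itself had 7.5, 11.8 and 8.88 FPKM in CTL_6h livers, against 24.9, 33 and 28.6 FPKM in CTL_0h livers. Cpt2, which completes acylcarnitine import, had 70.3, 71.9 and 82.3 FPKM in CTL_6h livers, against 147, 117 and 138 FPKM in CTL_0h livers. Both fell without overlap (-1.53 ± 0.18, limma adjusted p = 7.45e-05 for Ppara and -0.83 ± 0.15, limma adjusted p = 0.00169 for Cpt2). Fgf21, a fasting hormone, had 109.9, 62.2 and 65.2 FPKM in CTL_6h livers, against 49.4, 25.3 and 21.9 FPKM in CTL_0h livers and did not pass the test (1.31 ± 0.59, limma adjusted p = 0.117). G0s2, the inhibitor of adipose triglyceride lipase, had 353, 144 and 351 FPKM in CTL_6h livers, against 1183, 1084 and 897 FPKM in CTL_0h livers and fell (-2.0 ± 0.31, limma adjusted p = 6.22e-04). Hilpda, a second inhibitor of that lipase, had 213, 12.7 and 249 FPKM in CTL_6h livers, against 7.36, 3.84 and 4.14 FPKM in CTL_0h livers, with CTL_6h_3 near the CTL_0h libraries. It rose (3.93 ± 0.85, limma adjusted p = 0.00497), by 5.29 without CTL_6h_3 and 3.20 without CTL_6h_4. Of 30 lipid droplet genes 4 rose and 5 fell (13.3% and 16.7%, against 15.2% and 11.8% of all genes). Risers in the list numbered 2 without CTL_6h_2, 2 without CTL_6h_4, 2 without CTL_0h_3 and 2 without CTL_0h_4.

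Sterol synthesis and uptake genes rose in 12 of 34 and fell in 2 (median 0.45). Cyp51, which demethylates lanosterol, had 28, 32.6 and 15.5 FPKM in CTL_6h livers, against 6.65, 10.5 and 5.3 FPKM in CTL_0h livers. It rose without overlap (1.62 ± 0.33, limma adjusted p = 0.0037), and the list's median by library was 0.69, 0.65 and 0.07 in CTL_6h replicates 2, 3 and 4. Srebf1, the lipogenic factor, had 42.2, 19.7 and 26.7 FPKM in CTL_6h livers, against 6.74, 11 and 8.37 FPKM in CTL_0h livers and rose (1.61 ± 0.25, limma adjusted p = 5.09e-04). Of 29 bile acid genes 13 fell and 2 rose (median -0.39). Cyp8b1, the sterol 12-hydroxylase, had 222, 211 and 254 FPKM in CTL_6h livers, against 659, 617 and 731 FPKM in CTL_0h livers. Cyp7a1, the rate-limiting enzyme, had 4.89, 2.46 and 5.68 FPKM in CTL_6h livers, against 12.9, 18.6 and 17 FPKM in CTL_0h livers. Nr0b2, the repressor SHP, had 25.9, 27.2 and 9.72 FPKM in CTL_6h livers, against 107, 107 and 47 FPKM in CTL_0h livers. All 3 fell without overlap (-1.54 ± 0.14, limma adjusted p = 9.28e-06 for Cyp8b1, -1.72 ± 0.36, limma adjusted p = 0.0039 for Cyp7a1 and -2.04 ± 0.44, limma adjusted p = 0.00476 for Nr0b2).

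Of 55 genes of amino acid catabolism 12 fell and 2 rose (median -0.25); the count of fallers was 7 without CTL_0h_3 and 6 without CTL_0h_4, and 20 under upper-quartile scaling. Hibadh and Hibch, enzymes of valine breakdown, both fell (-0.58 ± 0.12, limma adjusted p = 0.00342 for Hibadh, -0.67 ± 0.15, limma adjusted p = 0.00702 for Hibch). Gnmt, the buffer of methyl groups, had 4313, 3132 and 4068 FPKM in CTL_6h livers, against 3927, 3624 and 4049 FPKM in CTL_0h livers and did not pass the test (-0.02 ± 0.18, limma adjusted p = 0.943). Transporters rose in 8 of 30 and fell in 2. Slc38a2, an amino acid importer under ATF4, had 36.2, 41.7 and 33.1 FPKM in CTL_6h livers, against 13.3, 13.6 and 14.6 FPKM in CTL_0h livers, and Slc16a6, which exports ketone bodies in zebrafish, had 32.8, 8.53 and 23.4 FPKM in CTL_6h livers, against 1.08, 0.964 and 0.592 FPKM in CTL_0h livers. Both rose (1.35 ± 0.18, limma adjusted p = 2.05e-04 for Slc38a2, 3.41 ± 0.42, limma adjusted p = 1.05e-04 for Slc16a6). Slc2a1, the glucose transporter GLUT1, had 41.9, 20.2 and 38.7 FPKM in CTL_6h livers, against 8.85, 8.27 and 7.69 FPKM in CTL_0h livers and rose (1.84 ± 0.24, limma adjusted p = 1.96e-04), within a list of glycolysis and hypoxia genes in which 13 of 30 rose and 2 fell. Sat1, which acetylates polyamines, had 297, 208 and 399 FPKM in CTL_6h livers, against 54.6, 33.7 and 34.9 FPKM in CTL_0h livers and rose (2.83 ± 0.31, limma adjusted p = 3.98e-05). Of 74 respiratory chain and ATP synthase subunits 0 rose and 1 fell, with a median of -0.04.

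Secreted liver hormones rose in 9 of 32 and fell in 4, counts that moved with single libraries: risers numbered 5 without CTL_6h_2, 5 without CTL_6h_4, 5 without CTL_0h_1 and 5 without CTL_0h_3, and fallers 1 without CTL_6h_2, 2 without CTL_6h_3, 2 without CTL_0h_1 and 1 without CTL_0h_3. Gdf15, a stress hormone that curbs appetite, had 866, 171 and 1054 FPKM in CTL_6h livers, against 29.8, 14.8 and 13.4 FPKM in CTL_0h livers. Fst, follistatin, had 11.4, 7.09 and 9.16 FPKM in CTL_6h livers, against 0.766, 1.66 and 0.368 FPKM in CTL_0h livers. Gdf15 in CTL_6h_3 was several times lower than in its companions (4.82 ± 0.62, limma adjusted p = 1.65e-04, and 5.64 without CTL_6h_3), and Fst lay above the CTL_0h libraries in all 3 CTL_6h livers (2.44 ± 0.26, limma adjusted p = 3.98e-05). Igfbp1, a binding protein of insulin-like growth factors, had 1021, 395 and 1168 FPKM in CTL_6h livers, against 505, 218 and 366 FPKM in CTL_0h livers; it overlapped and did not pass the test (1.18 ± 0.65, limma adjusted p = 0.199).

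Clock genes rose in 11 of 22 and fell in 2 (median 0.56). The members that fell were 1 without CTL_6h_3, 1 without CTL_6h_4, 0 without CTL_0h_3 and 0 without CTL_0h_4. Bhlhe40, a light- and hypoxia-responsive repressor, had 41.2, 20.3 and 38.6 FPKM in CTL_6h livers, against 3.89, 8.31 and 5.6 FPKM in CTL_0h livers. Nfil3, a repressor of D-box genes, had 108, 118 and 101 FPKM in CTL_6h livers, against 53.9, 46.5 and 35.7 FPKM in CTL_0h livers. Nr1d2, REV-ERB beta, had 7.7, 6.91 and 8.28 FPKM in CTL_6h livers, against 2.11, 2.89 and 2.45 FPKM in CTL_0h livers. All 3 rose without overlap (2.30 ± 0.31, limma adjusted p = 2.07e-04 for Bhlhe40, 1.26 ± 0.15, limma adjusted p = 1.04e-04 for Nfil3 and 1.31 ± 0.15, limma adjusted p = 5.68e-05 for Nr1d2). Among glucocorticoid response genes 12 of 26 rose and 3 fell, a list that shares Mt1, Mt2, Dusp1 and Lcn2 with those above. Tsc22d3, a classic target known as GILZ, had 32.1, 22.6 and 27.6 FPKM in CTL_6h livers, against 79.7, 87.4 and 97 FPKM in CTL_0h livers and fell (-1.66 ± 0.19, limma adjusted p = 6.94e-05).

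Nuclear receptors and their coregulators rose in 8 of 37 and fell in 7 (21.6% and 18.9%, against 15.2% and 11.8% of all genes). Fallers in the list numbered 4 without CTL_0h_4. Nr1i3, the xenobiotic receptor CAR, had 69.6, 53.6 and 63.5 FPKM in CTL_6h livers, against 123, 122 and 119.8 FPKM in CTL_0h livers and fell (-0.96 ± 0.15, limma adjusted p = 4.78e-04), and the related Nr1i2 had 40.8, 27.7 and 42.3 FPKM in CTL_6h livers, against 32.5, 31.4 and 34 FPKM in CTL_0h livers and did not pass the test (0.15 ± 0.19, limma adjusted p = 0.595). Tiparp, a target of the aryl hydrocarbon receptor, had 7.64, 3.29 and 8.28 FPKM in CTL_6h livers, against 0.289, 0.553 and 0.593 FPKM in CTL_0h livers and rose (2.25 ± 0.28, limma adjusted p = 1.38e-04). Hepatocyte transcription factors rose in 6 of 35 and fell in 7 (17.1% and 20%, against 15.2% and 11.8% of all genes). Their fallers numbered 4 without CTL_6h_2, 4 without CTL_6h_4 and 4 without CTL_0h_4. Hnf4a, the factor that sustains hepatocyte identity, had 163, 215 and 128 FPKM in CTL_6h livers, against 97.1, 144 and 154 FPKM in CTL_0h livers; it overlapped and did not pass the test (0.35 ± 0.22, limma adjusted p = 0.247). Of 32 TGF-beta and BMP genes 10 rose and 0 fell, among them Smad1, which transmits BMP signals, with 8.59, 8.15 and 6.98 FPKM in CTL_6h livers, against 2.71, 3.62 and 3.68 FPKM in CTL_0h livers (1.04 ± 0.18, limma adjusted p = 0.00126).

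Markers of other cells were read beside these lists. Among neutrophil markers, S100a8 and S100a9, which form calprotectin, were read first. S100a8 had 20.01, 5.07 and 24.5 FPKM in CTL_6h livers and was listed at 0 in all CTL_0h livers. S100a9 had 20.9, 4.34 and 21.1 FPKM in CTL_6h livers, against 2.4, 0 and 0.759 FPKM in CTL_0h livers. S100a9 rose (2.92 ± 0.55, limma adjusted p = 0.00208, and 3.60 without CTL_6h_3), and both were lowest in CTL_6h_3. The granule genes Camp, Ltf and Ngp were listed at 0 in all 6 libraries. S100a8 and Retnlg stayed under 1 FPKM in CTL_0h livers and reached the level for testing through other libraries. Markers low at both times were not tested, so the share that rose depends on the filter. In all, 5 of 18 neutrophil markers reached the level for testing, of which 4 rose. Lcn2 is among these and is also an acute phase gene, and the sum of the neutrophil markers (1969, 1453 and 2098 FPKM in CTL_6h livers, against 1437, 1158 and 1329 FPKM in CTL_0h livers) was mostly Wfdc21, at 1111 to 1853 FPKM in every library. The summed FPKM of 24 Kupffer cell and macrophage markers was 266, 244 and 367 FPKM in CTL_6h livers, against 301, 238 and 169.6 FPKM in CTL_0h livers. Of 19 tested, 3 rose (15.8%, against 15.2% of all genes) and 0 fell, with a median of 0.22. Cd68, a lysosomal marker of these cells, was 1 of the 3. It had 12.7, 5.33 and 15.3 FPKM in CTL_6h livers, against 3.06, 2.83 and 2.62 FPKM in CTL_0h livers (1.55 ± 0.32, limma adjusted p = 0.0038). Summed endothelial markers came to 128, 114 and 141 FPKM in CTL_6h livers, against 163, 136 and 112 FPKM in CTL_0h livers, and summed stellate cell markers to 272, 188 and 273 FPKM in CTL_6h livers, against 199, 182 and 168 FPKM in CTL_0h livers. These 3 sums overlapped between the groups, and 8 of the 10 cell type sums did in all. Of all tested genes 39.7% did not overlap. The neutrophil and bile duct sums did not overlap, but their gaps were narrow. The lowest CTL_6h and highest CTL_0h neutrophil sums were 1453 and 1437 FPKM, and Wfdc21 itself overlapped. The 14 bile duct markers came to 45.6, 25.4 and 58 FPKM in CTL_6h livers, against 23.5, 22.1 and 19.3 FPKM in CTL_0h livers, with 1 higher (Sox9) and 1 lower of 6 tested. Of 24 endothelial markers 1 rose and 5 fell. The members that fell numbered 1 without CTL_6h_2, 3 without CTL_6h_3, 1 without CTL_6h_4, 0 without CTL_0h_1 and 1 without CTL_0h_3. Tagln, a smooth muscle and stellate cell marker, had 13.8, 6.16 and 36 FPKM in CTL_6h livers, against 2.56, 3.44 and 3.89 FPKM in CTL_0h livers and was highest in CTL_6h_4, the library with muscle transcripts (1.89 ± 0.45, limma adjusted p = 0.00847, and 1.27 without CTL_6h_4). The part of other cells in the rises of chemokines and innate receptors was not tested.

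The strongest risers were compact genes. The 60 genes that rose 8-fold or more had a median of 4 exons, a transcript of 2492.5 bases and a span of 5.41 kb, against 8 exons, 3132 bases and 21.4 kb over all tested genes. Of these 60 genes 35% had 2 exons or fewer, against 13.6% of all tested genes. The 143 genes that fell 2-fold or more had a median of 5 exons and a span of 14.4 kb.

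Promoters of the 60 genes were matched by symbol for 47, and of all tested genes for 7737. The AP-1 site (TGANTCA) was in 19.1% of the 47, against 5.07% of the 7737. The CArG box was in 6.38% against 1.32%, the cAMP response element in 8.51% against 3.37%, and the core of the antioxidant response element in 27.7% against 15.4%. TATAAA was in 17% against 7.47%, but also in 13.2% of the 114 promoters of genes that fell 2-fold or more, and the NF-kappaB site in 17% against 10.1%. CCAAT was in 44.7% against 39%, and CACGTG was less frequent than in the background, in 6.38% against 10.8%. A sequence can count for both the AP-1 site and the antioxidant core, which overlap in letters. These shares were not tested, and they rest on few genes: the CArG box was in 3 of the 47 promoters. Of 23 promoters of sterol genes 82.6% held CCAAT.

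**Figure D5:**
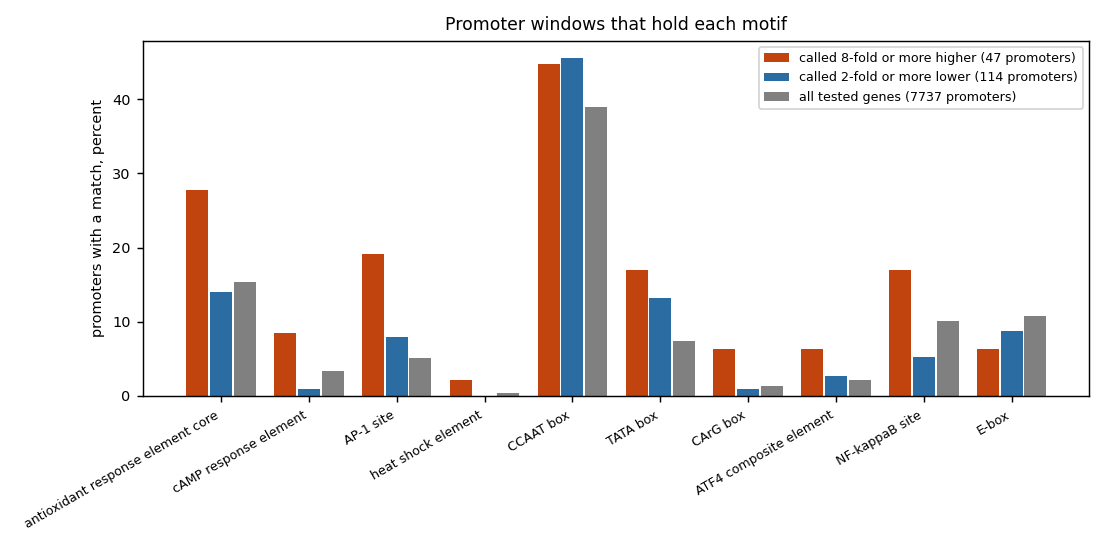
Percent of 300-base promoters that hold each motif, on the vertical axis, for the 47 promoters of genes that rose 8-fold or more, the 114 of genes that fell 2-fold or more and the 7737 of all tested genes. The AP-1 site is in 19.1% of the 47, 7.89% of the 114 and 5.07% of the 7737.

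The response on plain water was set beside that of mice on PPA water, PPA_6h against PPA_0h, with 3 libraries each. On plain water 1523 genes rose and 1181 fell, and on PPA water 1503 rose (15%) and 1335 fell (13.3%). Both responses shared 992 risers, 65.1% of those on plain water and 66.0% of those on PPA water. The difference between the responses passed the threshold for 1 gene (0.00996%), and 930 genes had an unadjusted p under 0.05. PPAR-alpha genes fell in 8 of 45 on plain water and in 28 on PPA water, with medians of -0.41 and -0.86. Gluconeogenesis genes fell in 5 of 26 and 13, with medians of 0.04 and -0.40. Neither list's difference was tested as a list. Atf3 rose by 8.24 ± 0.18 on plain water and 8.37 ± 0.18 on PPA water, and the differences of Glul were -3.44 ± 0.20 and -4.23 ± 0.20.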

How the data were processed

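The table holds FPKM (fragments per kilobase and per library total) for 24340 gene rows in 12 liver libraries, computed by the authors before deposit. Per the labels' protocols, poly(A) RNA was isolated from Trizol extracts and made into libraries with a ThruPLEX kit. The submitters' processing notes name HISAT2 2.1.0, Cufflinks, SAMtools 0.1.18-r580, Cuffdiff 2.1.1 and the mm10 build; which tool did what, with which settings and annotation, is not given in the sources used here. Because FPKM is scaled within a library, abundant genes that rise can push others down. How far this happened here was not tested.

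No read counts were used; depth was estimated from the steps between low FPKM values of transcripts of at least 3000 bases. Groups came from the sample titles. Left out were 1305 rows of short RNA genes, Alb and Apoe, and 27 symbols held as spreadsheet dates are not named. The 10045 remaining genes that reached 1 FPKM in 3 or more libraries were tested on log2(FPKM + 1) with limma 3.58.1 in R 4.3.3. The fit had 1 mean per group over all 12 libraries and moderated variances with a trend in the mean level; p-values were adjusted by Benjamini-Hochberg across these genes and called under 0.05. The script was checked on simulated data. Summaries and plots were made in Python 3.11.15 (pandas 2.3.3, matplotlib 3.10.9).

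The comparison and the 69 gene lists, 59 of function and 10 of cell type markers, were chosen with earlier results of these data known. Genes were named by a rule: the 15 steepest called risers and the 15 steepest fallers of at least 5 FPKM with non-overlapping groups, the 10 largest gains and losses in mean FPKM, up to 5 called and 2 uncalled members of each list, genes whose CTL_6h libraries spread most, and 12 stress and metabolism genes. Hsph1, Asns, Aars and Krt8 and the markers Acta1, Ckm, Camp, Ltf and Ngp were named outside this rule, after their values were seen, and not every gene it covers is reported here. Coordinates are from GENCODE vM21 (GRCm38), and promoters are 300 bases from RefSeq on GRCm38.p6. Alternatives covered the pseudocount, the filter, 3 scalings, the libraries fitted, sample quality weights, robust moderation, short RNA genes, summed symbols, a replicate block and leaving out each library in turn.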

Additional observations from a re-analysis of the deposited data

Results flagged for a closer look

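H2-Q8, a class I histocompatibility gene, was the 1 gene whose response differed between the arms. It had 3.89, 9.31 and 4.72 FPKM in CTL_6h livers, against 0.00156, 0.00154 and 0.0016 FPKM in CTL_0h livers. On plain water the difference was 2.72 ± 0.28, on PPA water -0.27 ± 0.28, and the difference of these log2 responses was 2.99 ± 0.39, limma adjusted p = 0.0389. H2-Q genes have near-identical copies, so the assignment of reads to H2-Q8 is uncertain, and values near 0.0016 FPKM are far below the 1 FPKM that the filter asks for. The call was lost under several alternatives, which are given with the processing.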

How the results depend on the processing

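No called gene in the lists or named changed sign under any of the 19 alternatives. The balance of calls did turn: fallers outnumbered risers under upper-quartile scaling and under quantile normalization, which gave 1308 risers and 1595 fallers. Of 299 named genes called, 266 were called under every alternative that tested them, and of 667 called genes in the lists or named, 471 were. Leaving out 1 control library at a time gave 1100 to 1469 risers and 729 to 1120 fallers, with the fewest of both without CTL_6h_2. Sample quality weights, whose estimation stopped before it converged, gave 2250 risers and 2020 fallers, and upper-quartile scaling 1276 and 1532. The difference between the plain water and PPA responses was called for 0 genes with a pseudocount of 5, upper-quartile scaling, quantile normalization, short RNA genes kept or a replicate block, for 523 with sample quality weights, and for 0 to 48 when 1 library was left out, with 48 without CTL_6h_3 and 16 without PPA_6h_5. The cause was not tested.

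No pairing by replicate number was used in the main fit. CTL_6h_3 and CTL_0h_3 deviated together at r = 0.0882 across genes and CTL_6h_4 and CTL_0h_4 at -0.282, while CTL_6h_4 and CTL_0h_1 reached 0.377. So few same-number libraries cannot show whether the numbers pair the samples. With the replicate block 1233 genes rose and 877 fell, and 73.0% of the calls were kept. The lower depth at 0 h limits what can be said of genes near 1 FPKM.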

Other observations

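Short transcripts moved between libraries of the same group. Over 566 genes with transcripts under 1000 bases, the median deviation from the group mean was 0.03 in CTL_6h_2, -0.23 in CTL_6h_3 and 0.20 in CTL_6h_4, and 0.26 in CTL_0h_1, -0.13 in CTL_0h_3 and -0.12 in CTL_0h_4, on the log2 scale. Respiratory chain subunits, many of them short, had medians by library of 0.01, -0.28 and 0.16 in CTL_6h replicates 2, 3 and 4 relative to the CTL_0h mean.

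Dnaja4, an Hsp70 co-chaperone, had 7.04, 29.2 and 3.8 FPKM in CTL_6h livers, against 1.94, 1.54 and 1.24 FPKM in CTL_0h livers and rose (2.04 ± 0.54, limma adjusted p = 0.0139), by 1.28 without CTL_6h_3 and 2.61 without CTL_6h_4. Erythroid markers summed to 416, 272 and 754 FPKM in CTL_6h livers, against 388, 256 and 287 FPKM in CTL_0h livers, highest in CTL_6h_4, the library that also held muscle transcripts. Of 18 long noncoding RNAs 5 rose, or 2 without CTL_6h_2, 8 without CTL_6h_3, 3 without CTL_6h_4, 8 without CTL_0h_1 and 3 without CTL_0h_3. The host of small nucleolar RNAs Snhg12 had 38.9, 33.3 and 40.7 FPKM in CTL_6h livers, against 23.6, 11.5 and 16.2 FPKM in CTL_0h livers (1.15 ± 0.22, limma adjusted p = 0.0027) and Malat1, a nuclear RNA, had 72.9, 48.2 and 92.9 FPKM in CTL_6h livers, against 71.5, 32 and 37.3 FPKM in CTL_0h livers and did not pass the test (0.63 ± 0.29, limma adjusted p = 0.12), though it did without CTL_6h_3 (0.89, limma adjusted p = 0.0409) or CTL_0h_1 (0.97, limma adjusted p = 0.0158).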
